A study of Homo sapiens with 4 samples.

Results

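N6-methyladenosine (m6A) sites of C643 cells mostly lay on GC-rich messenger RNAs, and the exceptions are described here: the sites in exons of protein-coding transcripts whose spliced sequence holds less than 45% G and C, called AT-rich transcripts below. A site was a member when it lay, on the same strand, in an exon of the Ensembl canonical transcript of such a gene (GENCODE annotation, GRCh38). There were 374 members on 168 genes, among 18073 sites on canonical coding exons of 3717 genes and 18789 sites listed in all. The members made up 2.07% of the sites on canonical coding exons (95% Wilson interval 1.87 to 2.29), although AT-rich transcripts were 35.6% of the 20046 canonical coding transcripts.

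The study mapped m6A with miCLIP2, in which RNA fragments are crosslinked by ultraviolet light to an antibody against m6A and the modified base is read from where reverse transcription ends or makes a C-to-T change. C643 is an established line that was derived from anaplastic thyroid cancer. The cells were wild type (WT in the labels) and untreated, polyadenylated RNA was used with a rabbit antibody against m6A, and the 3 biological replicates (4 libraries, of which 2 are technical libraries of replicate 1) form 1 group. The values come from 1 list in which the authors pooled the replicates, with a prediction score between 0.5 and 1 from their classifier m6Aboost for each site, so that no spread between replicates can be given. No sample without the methyltransferase METTL3 was analysed here. The list measures no expression, so the cell line could not be checked against marker genes, and a transcript without a listed site cannot be told apart from a transcript with too few reads.

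m6A is placed on nuclear RNA by the METTL3-METTL14 methyltransferase complex, mostly at the DRACH motif (D is A, G or T, R is A or G and H is A, C or T in the DNA letters used here, and the A in the middle is modified). In messenger RNA it is known to collect in long exons, around the stop codon and in the beginning of the 3' UTR, and to be scarce close to exon junctions. Readers such as the YTH-domain proteins bind it, and among its known effects is a shorter life of the RNA. Motif, transcript region and signal strength were inputs of m6Aboost, which bears on the motif, region and score of every site given below.

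The following windows show what the members with the highest and the lowest scores and the members on the hosts of lowest GC content looked like. Each is the RNA strand with 10 nt on either side of the listed A, in DNA letters from 5' to 3' (GRCh38), and the capitals mark the pentamer around that A.
HSPD1, score 0.991, 3' UTR, chr2:197487003-197487023, minus strand: ttattaatGAACTgtgacagg
ARF6, score 0.991, 3' UTR, chr14:49894364-49894384, plus strand: ttgaatttGAACTctggagtt
RAP2B, score 0.984, 3' UTR, chr3:153163765-153163785, plus strand: agaggaagAAACTttttttcc
ARF6, score 0.505, 3' UTR, chr14:49894536-49894556, plus strand: gctcttgtTGACTtccagcag
TMEM9B, score 0.506, 3' UTR, chr11:8948303-8948323, minus strand: ctaattggGAATTgaattcaa
HSBP1, score 0.507, 5' UTR, chr16:83808009-83808029, plus strand: gactgagcGGACAaacggaag
NBDY, score 0.763, 3' UTR, chrX:56817425-56817445, plus strand: atcatggtGAACTtaccaaag
PCNP, score 0.730, coding sequence, chr3:101579818-101579838, plus strand: gaaaactaAGACTgtttcttc
PMAIP1, score 0.719, 3' UTR, chr18:59902755-59902775, plus strand: tgcatcaaAAACTtgcatgag
C6orf62, score 0.973, 3' UTR, chr6:24705853-24705873, minus strand: aaatgaaaGGACTattgtaca
The 3 windows of highest score all ended their pentamer in ACT, whereas of the 3 lowest 1 (TMEM9B) was no DRACH motif. The 21-nt windows of the 3 highest scores held 33.3% G and C each. PCNP, PMAIP1 and C6orf62 are hosts of 34.7%, 36.7% and 36.9% GC, and NBDY, at 34.3%, was the lowest of all hosts. UFM1, with 35.2% also among the 5 hosts of lowest GC content, carried its site in a 33-nt exon at chr13:38359327 with a score of 0.789.

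Few AT-rich transcripts carried a site. At least 1 site was listed on 168 of 7130 AT-rich transcripts, 2.36% (2.03 to 2.73), against 3549 of 12916 other transcripts, 27.5% (26.7 to 28.3), beside a background of 18.5% over all canonical coding transcripts. The share of transcripts with a site rose with GC content over the whole lower range, from 0.707% (2 of 283) between 30% and 35% GC and 1.02% (28 of 2755) between 35% and 40%, to 3.37% (138 of 4092) between 40% and 45%, 11.4% between 45% and 50%, and 40.5% between 60% and 65%. Above that it was lower again, at 34.9% between 65% and 70% and 19.8% between 70% and 75%. There was no step at the limit: 4.79% of the transcripts with 44% to 45% GC had a site (36 of 752, with 83 sites), as did 6.20% of those with 45% to 46% (45 of 726, with 118 sites). WIPF1, which binds the actin regulator WASP, and RPL30, a ribosomal protein, were the hosts just inside, both at 44.98% GC. These shares describe where the members sit, since GC content chose them.

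**Figure D1:**
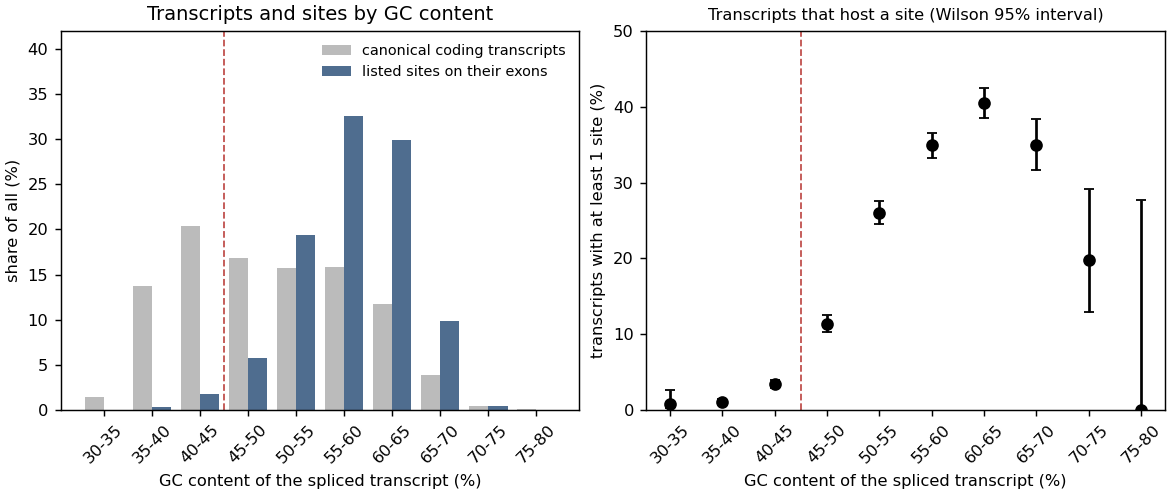
Left, the share of all canonical coding transcripts (grey) and of all listed sites on their exons (blue) by GC content of the spliced transcript in steps of 5 points. Right, the share of transcripts in each step with at least 1 listed site, with 95% Wilson intervals; the dashed line marks 45% GC, left of which 0.707% to 3.37% of transcripts in a step had a site, while the share between 60% and 65% was 40.5%.

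The AT-rich hosts were short genes in their coding part, with long AT-rich 3' UTRs behind them. Their median transcript had 42.5% GC (34.3 to 44.98), 3080 nt and 5 exons. The median coding sequence was 726 nt long with 48.7% GC, and the median 3' UTR 2042.5 nt long with 37.3% GC. AT-rich transcripts without a site had a longer median coding sequence of 1350 nt, with 43.7% GC, and 8 exons. In 164 of the 168 hosts the coding sequence held more GC than the 3' UTR, and in 132 it held 45% or more. A 5' UTR of 66.3% GC at the median stood at the other end of the same transcripts. In those 132 hosts the coding sequence alone would not have met the limit of 45%.

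ARF6, a small GTPase of membrane traffic and the actin cortex, carried the most members. Its 14 sites lay on its last exon of 3799 nt (transcript at chr14:49893082-49897054, plus strand), with 1 in the 5' UTR, 8 in the coding sequence and 5 in the 3' UTR. In the 5' UTR the score was 0.596. In the coding sequence the scores were, in order along the transcript, 0.681, 0.847, 0.658, 0.864, 0.603, 0.909, 0.693 and 0.801, and in the 3' UTR 0.991, 0.533, 0.547, 0.814 and 0.505. The coding part of ARF6 has 55.9% GC and its 3' UTR 33.9%, and 12 of its 89 DRACH motifs were listed (13.5%, 7.88 to 22.1). The last site lay 284 nt after the first base of the stop codon, and no site was listed in the rest of the 2790-nt 3' UTR.

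EXT1, which builds heparan sulfate chains, had 10 sites in 2 clusters, in the first and in the last exon of the transcript. Its first exon held 7, of which 2 were in the 5' UTR (scores 0.733 and 0.636) and 5 in the coding sequence (0.675, 0.836, 0.611, 0.642 and 0.854). The other 3 (0.866, 0.896 and 0.691) lay in the last exon 116 to 189 nt after the stop codon began, and the internal exons between held none. CD44, the hyaluronan receptor, had a like split: sites of 0.926 and 0.871 in exon 1 of 18, a site of 0.565 in exon 5, and sites of 0.739, 0.850 and 0.907 in the last exon.

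HNRNPA0, RAP2B, TSPYL1 and CCDC71L, the next hosts by number of sites, all consist of 1 exon. HNRNPA0, an RNA-binding protein, had 8 sites with scores of 0.940, 0.915, 0.557, 0.737 and 0.823 in a coding sequence of 64.3% GC, and 0.815, 0.639 and 0.866 in the 3' UTR of 37.1% GC. RAP2B, a small GTPase related to RAS, had 8 sites, with 0.648, 0.616, 0.731 and 0.803 in the coding sequence and 0.556, 0.984, 0.775 and 0.895 in the 3' UTR. TSPYL1, a nucleosome assembly protein-like gene, had 8 sites as 3 in the coding sequence (0.824, 0.706 and 0.818) and 5 in the 3' UTR (0.726, 0.552, 0.739, 0.856 and 0.927). The window of the highest-scoring site of TSPYL1 shows the letters around a 3' UTR site of such a transcript.
TSPYL1, 3' UTR, chr6:116278064-116278084, minus strand: acgttaatGAACTcagaggag
The capitals are the pentamer. The GC content of the 50 nt on each side of the pentamer (local GC) was 47% at this site. CCDC71L, with a coding sequence of 74.4% GC over a 3' UTR of 34.98%, had 2 coding sites (0.547 and 0.578) and 5 in the 3' UTR (0.568, 0.791, 0.572, 0.590 and 0.871). Its 3' UTR sites all lay within 338 nt of the stop codon.

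FBXW2, IST1 and INSIG1 are spliced hosts. FBXW2, the substrate receptor of an SCF ubiquitin ligase, had 3 sites in its exon 3 of 510 nt (0.599, 0.508 and 0.601) and 4 in its last exon around the stop codon (0.824, 0.925, 0.587 and 0.794). All 7 sites of IST1, a partner of the ESCRT machinery, lay in the last exon, with 0.818 in the coding sequence and 0.546, 0.640, 0.750, 0.809, 0.810 and 0.744 in the 3' UTR. INSIG1, an endoplasmic reticulum protein that holds back sterol synthesis, had its 6 sites (0.715, 0.726, 0.864, 0.674, 0.925 and 0.592) in the 3' UTR, 113 to 341 nt from the stop codon. Its coding sequence of 57.9% GC held none. The 10 hosts with the most sites held 81 of the 374 members (21.7%).

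**Figure D2:**
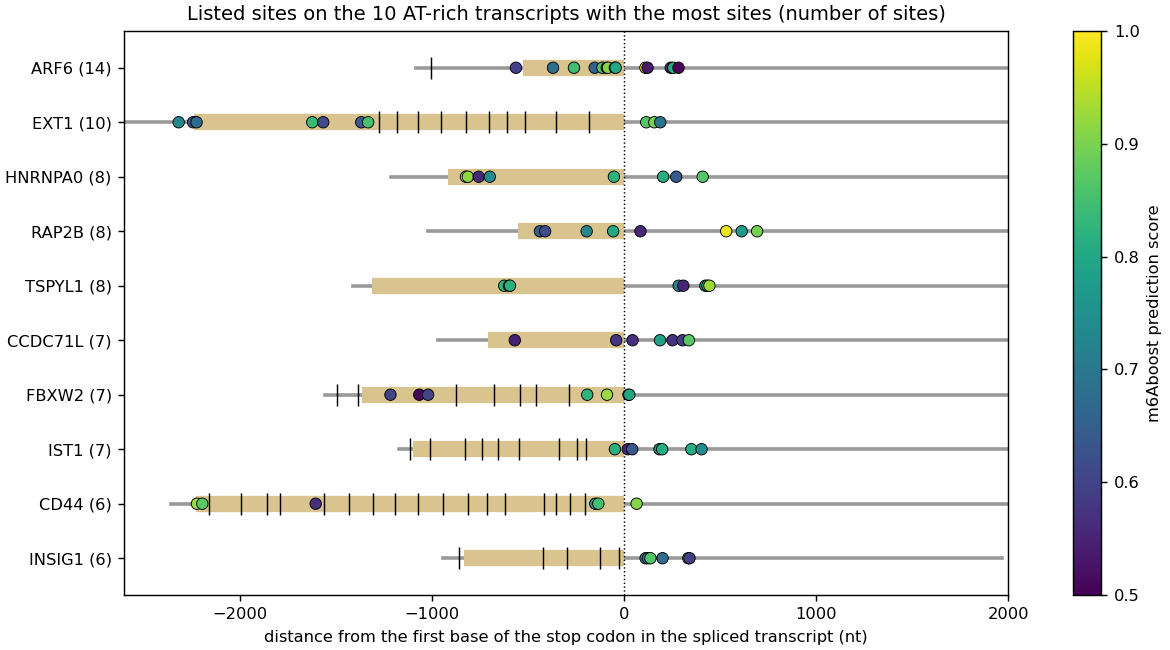
Each line is the spliced canonical transcript of a host, aligned at the first base of its stop codon (distance in nt), with the coding sequence as a thick bar, exon junctions as black ticks and the listed sites as points coloured by prediction score; 3' UTRs are drawn to 2000 nt and the EXT1 5' UTR is cut at the left. The sites of ARF6 gather around the stop codon, those of EXT1 lie in its first and its last exon, and no site of these 10 hosts lies beyond 693 nt into the 3' UTR side (RAP2B).

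Most hosts carried little. A single site was listed on 86 of the 168 AT-rich hosts (51.2%, 43.7 to 58.6), against 19.1% of the other hosts, and the medians were 1 and 4 sites per host. In 67 hosts every site lay in the 3' UTR and in 62 every site lay in the coding sequence. Where a host had several, many were close together: 92 of 206 neighbouring pairs (44.7%, 38.0 to 51.5) were at most 50 nt apart, against 32.1% on other hosts. The spacing was not tested and not set against that of the DRACH motifs. Of the members, 36 lay on chromosome 1 and 32 on chromosome 3. The gene-dense and GC-rich chromosome 19 held 2 members (0.535%) against 12.8% of the other sites. GC content chose the members and the AT-rich transcripts of each chromosome were not counted, so these counts by chromosome are a description.

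By function, 97 of the hosts with 209 members could be put in 11 groups, formed after the hosts were seen and without a test. The groups were drawn from the hosts, so the AT-rich transcripts of each group that are no hosts were not counted, and over all members 50% lay in the 3' UTR, 45.2% in the coding sequence and 52.1% within 200 nt of the stop codon. The secretory pathway was the group with the most hosts, 18 genes with 35 members, of which 29 lay in the 3' UTR (KDELR2, a receptor that returns proteins to the endoplasmic reticulum, 5 sites; RTN4, a reticulon that shapes it, 4). Mitochondrial genes followed with 17 hosts and 31 members, 23 of them within 200 nt of the stop codon (TIMM8A and TIMM8B, chaperones of protein import; the respiratory chain protein COX7A2L; the elongation factor TSFM). Ribosome and translation genes gave 10 hosts with 15 members, of which 14 lay in the coding sequence, with a low median score of 0.622 (RPS6, RPL30 and EEF1A1 with 2 each). Small GTPases and their regulators gave 6 hosts with 32 members, cell surface proteins 10 with 28 (CD44, and the semaphorin and VEGF receptor NRP1 with 6 sites), and ubiquitin and ubiquitin-like conjugation 9 with 23. The cytoskeleton group had 9 hosts and 15 members with the highest median score, 0.850, among them TMSB4X, the actin monomer-binding thymosin, with 0.931, 0.879 and 0.913. Glycolysis and redox enzymes gave 6 hosts with 15 members. Chaperones, with the heat shock factor binding protein HSBP1 counted among them, gave 4 with 7, and calmodulins and myosin light chains 4 with 4, all of these last in the 3' UTR. Of the 14-3-3 adaptor proteins YWHAB, YWHAE, YWHAQ and YWHAZ had 1 site each. Several of these genes, ribosomal protein genes, EEF1A1, TMSB4X and YWHAZ among them, have near-identical processed copies in the genome, and how far reads were lost or split there was not tested.

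Among 7 lists of genes by function the share of AT-rich transcripts that were hosts ran from 0% to 7.41%, and no list was tested. No member lay on 50 AT-rich transcripts of histone-modifying enzymes and chromatin remodellers, on 59 of DNA repair and chromosome segregation, on 44 of centrosome and cilium proteins or on 58 of RNA-binding and RNA-processing proteins, which allows shares of up to 7.13%, 6.11%, 8.03% and 6.21% (upper ends of the 95% Wilson intervals). These stand against 2.36% over all AT-rich transcripts, so that the counts of 0 are not set apart from it. Ubiquitin ligases and deubiquitinases gave 1 host of 68 (FBXW2). Growth signalling gave 3 of 68, 4.41% (1.51 to 12.2): CDC42EP3, an effector of CDC42, with scores of 0.851 and 0.778, CTNNB1, beta-catenin, with 0.755, and PPP2CA, a catalytic subunit of protein phosphatase 2A, with 0.556. Short-lived regulators gave 2 of 27, 7.41% (2.06 to 23.4), BTG1, an antiproliferative factor of RNA decay, with 0.790, 0.767, 0.744 and 0.519, and PMAIP1, the BH3-only protein NOXA, with 0.719. The C2H2 zinc finger genes, a large family of DNA-binding proteins, gave 1 host of 371 AT-rich transcripts (ZNF749, 0.601, in the 5' UTR), with an upper limit of 1.51% beside 2.36% over all AT-rich transcripts, and 82 hosts of 246 transcripts with more GC. Solute carriers gave 1 of 136, the mitochondrial phosphate carrier SLC25A3 with 0.933.

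Along the transcript the members lay nearer to the stop codon than other sites did. Within 200 nt of it on either side lay 195 of 374 members, 52.1% (47.1 to 57.2), against 34.1% of the other sites, a difference of 18.0 percentage points (95% interval 11.5 to 24.5, adjusted p = 1.78e-07, n = 168 hosts). This and the following differences were tested with the host gene as the cluster, n being the AT-rich host genes in the test, and with Benjamini-Hochberg adjustment over 11 differences. The difference missed the threshold when 1 site per gene was taken, at 8.67 points (adjusted p = 0.0603, n = 168). Among the sites near the stop codon, more members lay before it, 88 of 195 (45.1%) against 34.96% of the others, a comparison chosen after its values were seen (adjusted p = 0.0370 over 5, n = 114). Within the same 200 nt lay 12.6% of the DRACH motifs of AT-rich hosts and 13.2% of those of other hosts. Of these motifs 11.97% and 20.4% were listed (difference -8.44 points, adjusted p = 1.63e-16, n = 168). Motifs farther away were listed at 1.56% and 5.96% (-4.39 points, adjusted p = 8.17e-97, n = 167). Both listed shares were compared after their values were seen and adjusted with the comparisons by class given below.

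No region held a share of members that differed from that of the other sites past the threshold. The 3' UTR held 187 of 374 members or 50%, against 54.9%, a difference of -4.87 points (-11.6 to 1.84, adjusted p = 0.283, n = 168). The coding sequence held 169 (45.2%) against 42.9%, a difference of 2.29 points (-4.22 to 8.81, adjusted p = 0.539, n = 168). The 5' UTR held 18 (4.81%) against 2.23%, a difference of 2.58 points (-0.0476 to 5.21, adjusted p = 0.149, n = 168). None of these 3 differences passed the test, and each interval allows several points. The paper reports that the antibody also recognises m6Am, a related modification at the cap of the RNA. How many of the 5' UTR members are such sites was not tested. With 1 site per gene, the one of highest score, the 3' UTR difference was -10.3 points and passed (adjusted p = 0.0258, n = 168). The score followed the region: the median was 0.817 in the 3' UTR, 0.728 in the coding sequence and 0.608 in the 5' UTR.

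Long internal exons, in which many coding sites of other hosts lay, were nearly empty. Internal exons of over 400 nt held 8 of the 169 coding members, 4.73% (2.42 to 9.06), against 1982 of 7592 coding sites elsewhere, 26.1%. The difference was -21.4 points (-26.96 to -15.8, adjusted p = 3.41e-13, n = 94). Coding DRACH motifs in such exons made up 2.20% of all DRACH motifs of AT-rich hosts and 6.20% of those of other hosts. Of these motifs 7 of 257 (2.72%, 1.33 to 5.51) were listed on AT-rich hosts and 1799 of 12356 (14.6%) on others, which was not tested. The longest internal exons with coding members belonged to DEGS1, the sphingolipid desaturase (743 nt, 3 sites of 0.636, 0.526 and 0.789), FBXW2 (510 nt), TXNDC15, a thioredoxin domain protein (488 nt, 0.740), SARAF, a regulator of calcium entry (418 nt, 0.636), and next YWHAQ with 376 nt (0.507). The exon of TXNDC15 showed that such a site can lie in GC-rich letters.
TXNDC15, coding sequence, chr5:134887943-134887963, plus strand: ggagcggaGGACTcaaggtgc
DEGS1, coding sequence, chr1:224189672-224189692, plus strand: atagtaaaAGACTtggactgg
The capitals again mark the pentamer, and local GC was 59% in TXNDC15 and 40% in DEGS1. The median longest internal exon was 178 nt on AT-rich hosts and 216 nt on other hosts.

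Last exons, single exons included, held 304 members (81.3%) against 76.0% of the other sites, a difference of 5.25 points (-0.612 to 11.1) that missed the threshold (adjusted p = 0.174, n = 168). It passed at 6.03 points with scores of at least 0.7 (adjusted p of 0.0294), at 6.99 with the longest coding transcript (0.0439) and at 7.07 over DRACH sites only (0.0252). The exons that held members had a median of 2087 nt, against 1414 nt at the other sites. At unlisted DRACH motifs the median exon was 2942 nt on AT-rich hosts and 760 nt on other hosts. Members thus lay in shorter exons than the unlisted motifs of their hosts, and other sites in longer ones, which was not tested. The kinds of exon were compared after their values were seen: internal exons held 38 members, 10.2% against 19.9% (adjusted p = 1.73e-05, n = 168), while single exons held 40, 10.7% against 3.31%, and first exons 32, 8.56% against 4.08%, both with an adjusted p of 0.0675. Internal exons also held fewer of the DRACH motifs, 19.5% on AT-rich hosts and 43.5% on other hosts. In first exons the motif shares were 3.47% and 4.82%. In last exons of spliced transcripts they were 69.95% and 50.04%, and in single exons 7.10% and 1.61%. Last and single exons thus held more of the motifs on AT-rich hosts too. These comparisons of sites take no account of where the motifs lie. Within 100 nt of an exon junction lay 69 of the 169 coding members, 40.8% against 28.6%, a difference of 12.2 points (1.74 to 22.6, adjusted p = 0.0370, n = 94).

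**Figure D3:**
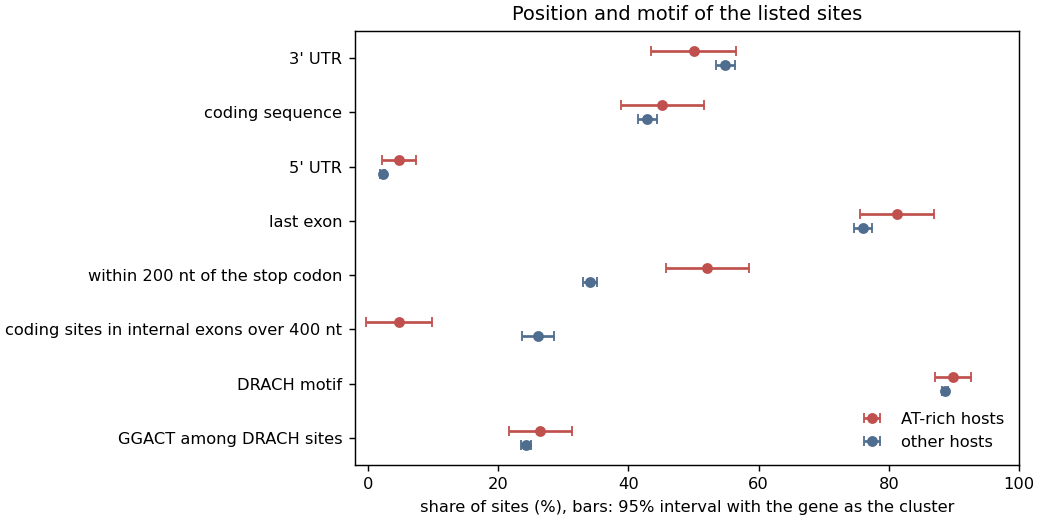
Share of the sites (%) in each region, position or motif for members (red) and for other sites (blue); the bars are 95% intervals with the host gene as the cluster. The points stand apart within 200 nt of the stop codon (52.1% against 34.1%) and in long internal exons (4.73% against 26.1%), and the bars of the other 6 rows overlap or nearly so.

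Most members lay at the DRACH motif, and the letters within it differed from those at other sites. A DRACH pentamer surrounded 336 members (89.8%) against 88.6% (adjusted p = 0.493, n = 168), and GGACT made up 89 of these 336 (26.5%) against 24.3% (adjusted p = 0.493, n = 162). GGACT was followed by GAACT with 58 members, AGACT with 51, GGACA with 33, TGACT with 30 and AAACT with 22. T in the last position was found in 76.2% of DRACH members against 59.7% of the other DRACH sites, a difference of 16.5 points (11.4 to 21.5, n = 162). GG before the modified A was found in 41.1% against 51.4%, a difference of -10.3 points (-15.99 to -4.59). Both letters were compared after their values were seen. The DRACH motifs of the hosts differed in the same directions, with 36.6% against 28.3% ending in T and 12.4% against 25.9% starting with GG. GC content chose the members and is coupled with these letters, so both differences are given as a description. Of the 38 members outside DRACH, 27 (71.1%) still had C after the A, 10 of them at GGACG. The YWHAZ site, 1 of the 38, lay too near the transcript start for a full pentamer and was counted there with its motif unread. In mouse cells the paper found signal at transcript starts that did not respond to the loss of Mettl3, and it names m6Am as the likely source. Whether the YWHAZ site, or the DMAC1 site 7 nt from the transcript start (score 0.522), is m6Am was not tested. The median score of the 38 was 0.602 against 0.779 of the DRACH members.

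The scores of members and other sites were close. The median was 0.758 (quartiles 0.634 and 0.859) against 0.756, and the means were 0.750 and 0.744 (adjusted p = 0.493, n = 168, interval of the difference -0.00801 to 0.0199). With 1 site per gene, the one of highest score, the difference in means turned to -0.0363 (adjusted p = 0.00132, n = 168), where other hosts give the highest of more sites. No member reached a score of exactly 1.

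A DRACH motif on an AT-rich host was listed less often. Of 11696 motifs on the AT-rich hosts 336 were listed, 2.87% (2.59 to 3.19), against 15686 of 199312 on other hosts, 7.87%, with 7.59% over all hosts together. The difference was -4.997 points (-5.49 to -4.51, adjusted p = 2.38e-88, n = 168). It was seen with the strongest motif too, where 16.7% of GGACT motifs were listed on AT-rich hosts and 27.2% on others. The other frequent pentamers followed in the same order on both kinds of host, with 8.47% and 18.1% for GAACT, 7.65% and 17.2% for AGACT, 6.21% and 13.3% for GGACA, 4.41% and 11.7% for TGACT and 2.05% and 7.99% for AAACT. Over the 18 DRACH pentamers, compared after their values were seen and adjusted over 18, the 8 with 10 or more listed motifs on AT-rich hosts were all listed less often there, and each difference passed the test. Of the 7 with 1 to 9 listed motifs there, 6 passed and GAACC did not (1.65% against 2.54%, adjusted p = 0.155, n = 138), with few motifs behind each. The other 3 had 0 listed on AT-rich hosts, which leaves no spread on that side and no usable test: 0 of 729 for AAACC against 0.283% on other hosts, 0 of 601 for TAACA against 0.338%, and 0 of 343 for TAACC against 0.132%. Motifs were not rarer, at a median of 19.5 per 1000 nt on AT-rich hosts and 17.2 on others.

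By region the shares were compared within the 3' UTR, the coding sequence and the 5' UTR, and whether the differences themselves differ between regions was not tested. In the 3' UTR 2.07% of motifs were listed on AT-rich hosts against 10.0% on others, a difference of -7.97 points (-8.60 to -7.33, adjusted p = 6.58e-132, n = 168). In the coding sequence the shares were 4.71% and 6.37%, a difference of -1.66 points (-2.84 to -0.476, adjusted p = 0.0123, n = 168), and in the 5' UTR 5.18% and 4.74%, where the interval of the difference ran from -2.45 to 3.34 points (adjusted p = 0.853). These and the next comparisons by class were chosen after their values were seen and adjusted over 29. The 3' UTR holds 69.9% of the motifs of AT-rich hosts and 42.8% of those of other hosts.

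In the 3' UTR the shares dropped with distance from the stop codon on both kinds of host. In the first 200 nt after the stop codon began, 13.8% of 3' UTR motifs on AT-rich hosts were listed against 27.0%, from there to 1000 nt 2.87% against 12.7%, and beyond 1000 nt 0.191% (10 of 5235) against 2.89%. KDELR2 held 2 of those 10 distal members, at 1908 and 1943 nt with scores of 0.872 and 0.846, the latter the farthest of all members.

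By exon length the shares lay close in the shortest exons and apart in those over 400 nt. In exons of up to 200 nt 1.46% and 1.48% of motifs were listed (interval of the difference -0.666 to 0.632 points, adjusted p = 0.959, n = 143). Over 200 and up to 400 nt they were 3.23% and 5.02%, a difference that missed the threshold (-3.40 to -0.175 points, adjusted p = 0.0577, n = 69). Over 400 and up to 1000 nt the shares were 6.59% and 17.2%, up to 2000 nt 5.24% and 15.8%, up to 4000 nt 3.24% and 10.6%, and above 4000 nt 1.71% and 4.76%, and these 4 differences passed the test. On both kinds of host the share was highest in exons of over 400 and up to 1000 nt. Of the coding motifs closer than 100 nt to a junction, 2.66% and 2.42% were listed (interval -0.590 to 1.07 points), and those farther away at 9.28% and 18.6% (adjusted p = 1.69e-05, n = 109).

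**Figure D4:**
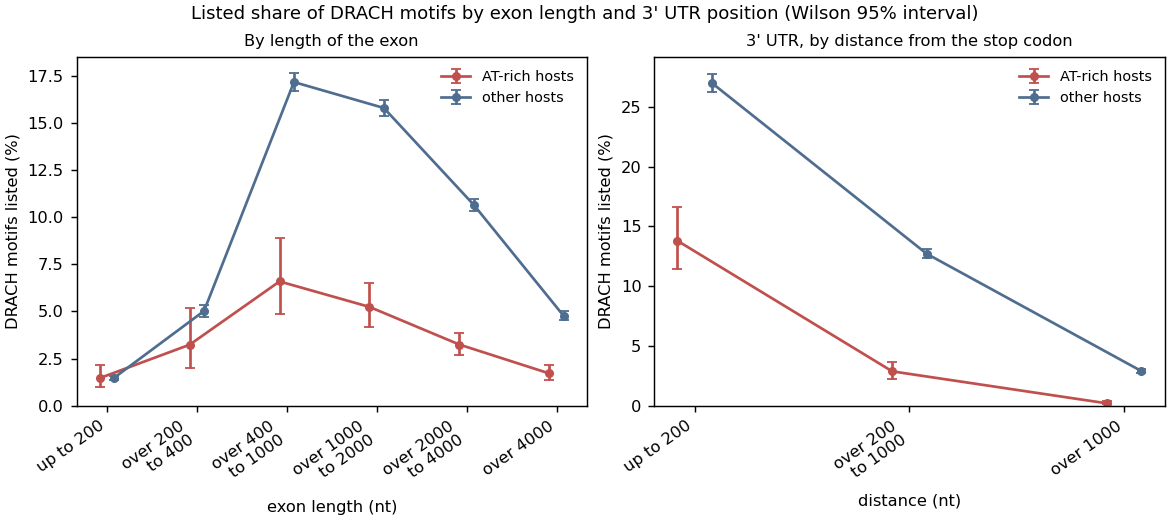
Share of DRACH motifs that were listed (%) on AT-rich hosts (red) and other hosts (blue), with 95% Wilson intervals, by the length of the exon (left, nt) and, for motifs in the 3' UTR, by the distance from the first base of the stop codon (right, nt). The 2 kinds of host meet in exons of up to 200 nt (1.46% and 1.48%) and lie apart in exons over 400 nt, and in the 3' UTR both shares drop with distance, to 0.191% and 2.89%.

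Within AT-rich transcripts the members lay in the GC-richer stretches. Local GC was 48% at the median member (quartiles 42 and 54.4), 40% at the unlisted DRACH motifs of the same hosts (34 and 47) and 61% at the other sites. Local GC was 45% or more at 250 members (66.8%) against 32.3% of these unlisted motifs. It exceeded the GC content of the whole transcript in 74.6% of the members, at a median of 5.79 points, with 22.2 points in the 5' UTR, 8.89 in the coding sequence and 1.71 in the 3' UTR. Local GC is coupled with the GC content that chose the members, so the comparison with other sites is a description. The extremes were a 3' UTR site of HNRNPA0 with 25% and the exon 1 site of RTN4 with 79%, both named for their values.

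The contrast held when motifs were compared within 1 transcript and 1 region. In 160 AT-rich hosts with both kinds of motif, local GC was 4.15 points higher at listed than at unlisted motifs (3.05 to 5.25), and it was higher in 118 of the 160. The same contrast was 4.02 points (3.84 to 4.20) in 3460 other hosts, higher in 2757. The 2 contrasts differed by 0.126 points (-0.992 to 1.24, adjusted p = 0.826, n = 160). In the AT-rich hosts it was 6.17 points in the 3' UTR (above 0 in 76 of 95 hosts), 2.71 in the coding sequence (56 of 88) and -3.60 in the 5' UTR (above 0 in 2 of 8). The place within a region was not held equal, and listed 3' UTR motifs lay nearer to the stop codon, as given above.

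At equal local GC the listed shares of AT-rich and other hosts lay close together. Under 35% local GC 0.583% (18 of 3085) and 0.701% (48 of 6845) of motifs were listed, between 35% and 40% 1.75% and 1.63%, and between 40% and 45% 2.29% and 2.93%. The shares were 3.96% and 4.07% between 45% and 50%, 6.10% and 5.98% between 50% and 55%, and 7.92% and 8.32% between 55% and 60%. In the top step, at 60% and more, they were 9.51% (43 of 452) and 12.2%, with an interval of the difference from -6.37 to 0.988 points. None of the 7 differences passed the test (adjusted p of 0.215 to 0.918), which does not show that the shares are equal.

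The regions behind these sums did not run alike. In the 3' UTR, shares were 1.12% and 1.24% under 40% local GC, 2.94% and 4.57% between 40% and 50% (adjusted p = 0.00206, n = 157), and 5.47% and 15.0% at 50% and more, a difference of -9.53 points (-11.9 to -7.20, adjusted p = 3.67e-15, n = 105). In the coding sequence the AT-rich hosts had the higher shares, with 3.03% against 2.20% between 40% and 50% and 9.16% against 7.08% at 50% and more, but neither difference passed the test (adjusted p = 0.215 and 0.164, n = 156 each). The close shares over all regions thus combine lower 3' UTR shares at 40% local GC and more with coding shares whose differences did not pass. Without the split by local GC the coding share was lower on AT-rich hosts (4.71% against 6.37%). The 5' UTR was not split by local GC, and what each region adds to the sum was not computed.

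**Figure D5:**
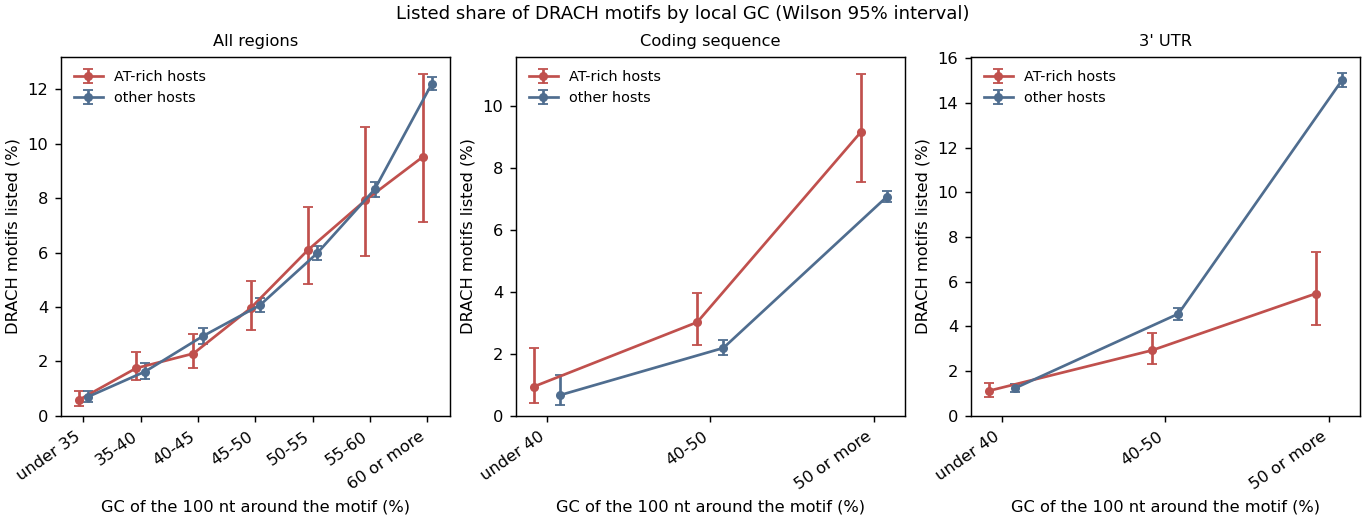
Share of DRACH motifs that were listed (%) by the GC content of the 50 nt on each side of the pentamer (%), on AT-rich hosts (red) and other hosts (blue), with 95% Wilson intervals, over all regions (left), in the coding sequence (middle) and in the 3' UTR (right). Over all regions both lines rise together from below 1% to 9.51% and 12.2%, whereas in the 3' UTR at 50% local GC and more they part at 5.47% and 15.0%.

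These shares hold only for transcripts that had at least 1 listed site. Over all 7130 AT-rich transcripts 336 of 647450 DRACH motifs were listed, 0.0519%, against 2.09% of 750824 on other transcripts. At equal local GC the 2 kinds then stood far apart, for instance 0.0769% and 0.853% between 45% and 50%, and 0.279% and 4.34% at 60% and more. How much of this gap belongs to transcripts that were not expressed was not tested, as the list holds no expression values.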

How the data were processed

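miCLIP2 reads of C643 cells were processed by the authors. Per the labels and the study's methods, reads were aligned to GRCh38 with STAR 2.7.3a, filtered with SAMtools 1.9, freed of duplicates with UMI-tools 1.0.0 and handled with bedtools 2.27.1, and reads with C-to-T changes were set apart. Peaks found in several replicates were classified by m6Aboost from the 21-nt sequence, the transcript region, C-to-T changes and relative signal strength. The deposited score is a fraction that the authors give for each site called modified. The list pools the replicates and holds no counts, so the depth behind a site is unknown, and a site can be listed only where a transcript gave enough reads.

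The genes, regions and exons come from GENCODE release 44 (the authors used an earlier release on the same assembly), with the GC content taken over the spliced sequence of the Ensembl canonical transcript. Every site in a canonical coding exon fell on an A of that transcript. Of the 18789 sites, 716 lay in no canonical coding exon and were left out, and 510 lay in several, of which 13 were members. A site in several canonical exons was given to an AT-rich host first, then to the longest that is no readthrough, and 7 members also lay in a canonical transcript of 45% GC or more. All values were computed with Python 3.11.15, numpy 2.4.6, scipy 1.17.1 and pandas 2.3.3, and drawn with matplotlib 3.10.9.

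Shares and means of members and other sites were compared by their difference, with a variance that takes the host gene as the cluster (linearised ratio estimator), a two-sided normal test, 95% intervals, and a threshold of 0.05 after Benjamini-Hochberg adjustment. The comparison was tested on simulated data for shares far from 0, which does not cover motif classes with few listed motifs. Sites of 1 gene are not independent, replicates cannot be told apart in a pooled list, and the p-values measure the spread between genes only. Wilson intervals treat sites as independent and cover counting error only. The genes named are the 10 with the most members, the 3 highest and 3 lowest scores, the 5 hosts of lowest GC content and the 2 just under 45%, the 5 longest internal exons with a coding member, and listed genes with 4 or more members. Other genes named were chosen after their values were seen. Members, gene lists and tests were chosen with earlier results of these data known. Alternatives changed the score limit, the GC limit, the transcript, the motif, the windows, sites in several transcripts and the weight of genes.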

Additional observations from a re-analysis of the deposited data

How the results depend on the processing

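Of 94 alternative values for 13 results, 82 kept their direction and their side of the threshold (or, without a test, their value). With 1 site per gene, the one of highest score, the stop codon difference was 8.67 points (adjusted p = 0.0603, n = 168 hosts), the 3' UTR difference passed the threshold at -10.3 points (adjusted p = 0.0258), the GGACT difference turned to -4.97 points (adjusted p = 0.263), and the mean score difference turned to -0.0363 (adjusted p = 0.00132). By construction this takes the highest of more scores on other hosts, whose median was 4 sites. The share of sites on AT-rich transcripts then was 4.52%, the share of hosts. The last exon difference passed the threshold at 6.03 points with scores of at least 0.7, 6.99 with the longest transcript and 7.07 at DRACH sites only, and the cause was not tested. With hosts under 40% GC (49 members on 30 hosts, hosts between 40% and 45% on neither side) the share was 0.271%, and the differences in mean score and in the within-transcript local GC contrast turned to -0.00906 and -0.730 points. With 25 nt on each side that contrast difference was -0.286 points. None of these last 3 passed the threshold, in either setting. Of the 82, the tests of coding sites in long internal exons with hosts under 40% GC and with exons over 1000 nt are void, since 0 members lay there. Leaving out ARF6, run for 12 of the 13 results, and leaving out single-exon transcripts, run for 4 (3' UTR, coding sequence, last exon and stop codon), changed no call in those 12 and 4, and both were chosen after seeing the data. No replicate could be left out because the list pools them. No paired analysis was possible because the samples form 1 group.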
